A study of Homo sapiens with 6 samples.

Results

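The gene set examined here comprises 8 transcription factors of the intestinal epithelial lineage, CDX1, CDX2, HNF4A, KLF5, ELF3, GATA6, FOXA2 and SOX9, each found as 1 of the 56638 gene symbols in the count tables. They were chosen by name. DLD-1, an established human colorectal cancer cell line, had been transfected with lncSLCC1 siRNA, which targets a long non-coding transcript (symbol RP11-400N13.2 in the tables), or with control siRNA. Total RNA was sequenced in 3 libraries per group, all from cells in the same serum-supplemented medium. Nothing in the labels tells whether replicates came from separate cultures; the p-values therefore reflect library-to-library spread, which may be technical. How many siRNA sequences were used is not given in the sources used here. In bulk RNA a lower share of expressing cells and less RNA per cell cannot be told apart.

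These factors set and maintain the identity of the gut lining. CDX2 and its relative CDX1 are homeobox proteins of the caudal family that direct the intestinal programme, and loss of CDX2 in the mouse gut replaces intestinal by more anterior features. HNF4A is a nuclear receptor that drives enterocyte genes, FOXA2 a forkhead factor that opens chromatin in endodermal cells, and GATA6 a zinc-finger factor of endoderm and crypts. ELF3 is an epithelial ETS factor, KLF5 a zinc-finger factor of proliferating crypt cells, and SOX9 an HMG-box factor of crypt progenitors and Paneth cells.

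RefSeq (assembly GRCh38.p14) gave promoter windows of 250 bases before and 50 after an annotated start for 5 of the 8 genes, CDX2, HNF4A, KLF5, ELF3 and GATA6. CDX1, FOXA2 and SOX9 had no entry. The sequences are those of CDX2 and ELF3, whose levels lay apart between the groups in opposite directions, and both windows of HNF4A, whose upstream promoter P2 and downstream promoter P1 give different isoforms that a count per gene symbol does not separate. Capitals mark, on either strand, short words known from binding sites of these families: TTTAT for caudal proteins, AGATAA for GATA-type zinc fingers, TGTTTAC for forkhead factors, CAAAG for nuclear receptors like HNF4A, CCCGCCC for KLF proteins, AGGAAG for ETS proteins and ACAATG for SOX proteins.
CDX2 (chr13:27969266-27969565, minus strand): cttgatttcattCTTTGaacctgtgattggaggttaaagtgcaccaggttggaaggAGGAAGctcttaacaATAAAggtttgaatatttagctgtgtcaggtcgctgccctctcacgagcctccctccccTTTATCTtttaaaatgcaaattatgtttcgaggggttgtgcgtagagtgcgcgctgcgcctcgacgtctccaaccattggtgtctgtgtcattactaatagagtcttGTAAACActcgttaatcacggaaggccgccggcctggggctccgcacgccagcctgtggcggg
ELF3 (chr1:202010337-202010636, plus strand): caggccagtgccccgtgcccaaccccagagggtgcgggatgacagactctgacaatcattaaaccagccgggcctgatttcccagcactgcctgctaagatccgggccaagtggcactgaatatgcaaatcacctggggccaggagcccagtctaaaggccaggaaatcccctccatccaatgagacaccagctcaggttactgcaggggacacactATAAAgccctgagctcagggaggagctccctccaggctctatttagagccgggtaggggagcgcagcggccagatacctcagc
HNF4A P2 (chr20:44355449-44355748, plus strand): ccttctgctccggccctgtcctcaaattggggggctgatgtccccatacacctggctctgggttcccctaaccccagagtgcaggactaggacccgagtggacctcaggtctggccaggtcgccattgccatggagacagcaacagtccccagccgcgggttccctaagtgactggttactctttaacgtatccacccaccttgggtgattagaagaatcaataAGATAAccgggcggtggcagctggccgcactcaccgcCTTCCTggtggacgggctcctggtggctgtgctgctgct
HNF4A P1 (chr20:44400989-44401288, plus strand): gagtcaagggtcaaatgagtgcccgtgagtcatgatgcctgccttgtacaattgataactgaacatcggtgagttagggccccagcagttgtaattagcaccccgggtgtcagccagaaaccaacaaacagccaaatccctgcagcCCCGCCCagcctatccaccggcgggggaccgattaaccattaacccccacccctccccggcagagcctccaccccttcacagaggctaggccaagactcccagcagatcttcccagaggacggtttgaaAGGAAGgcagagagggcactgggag
The CDX2 window holds TTTAT at 2 places, 1 of which overlaps the reverse of AGATAA. It also holds, in reverse, CAAAG and TGTTTAC, and AGGAAG on its own strand. TGTTTAC is in 3.42% of the 35116 promoter windows of this length, AGATAA in 10.3%, AGGAAG in 33.6%, TTTAT in 34.9% and CAAAG in 47.5%. In the ELF3 window only TTTAT was found, in reverse, at position -33 from the start. The printed strand reads TATAAA there, a longer word that was not among those searched. HNF4A P2 holds AGATAA and AGGAAG, and HNF4A P1 holds CCCGCCC, a word in 33.1% of windows, and AGGAAG. The SOX word ACAATG, in 10.8% of windows, is in none of these 4. These are letter matches in the reference and not binding sites measured in these cells.

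In the whole series, 12572277 to 15262872 reads were assigned to genes in the lncSLCC1 siRNA libraries and 14873343 to 15568075 in the control siRNA libraries. The targeted RNA stood at 1.69, 2.69 and 2.15 CPM (gene counts scaled to the library total) in replicates 1, 2 and 3 with lncSLCC1 siRNA, against 4.91, 9.19 and 8.98 CPM in replicates 1, 2 and 3 with control siRNA (edgeR log2 fold change -1.88, SE 0.264, with an adjusted p of 0.0027). Of 15242 genes with enough reads to be tested, 984 were higher and 1126 lower at a Benjamini-Hochberg adjusted p under 0.05, together 13.8% (6.46% higher and 7.39% lower). Without scaling beyond library totals the split was 1442 higher and 814 lower. Control siRNA libraries were more scattered than lncSLCC1 siRNA libraries, and control siRNA replicate 1 stood farthest from the others of its group. Epithelial markers were present: all 8 of EPCAM, CDH1, KRT8, KRT18, KRT19, VIL1, CDH17 and KRT20 had reads, VIL1 alone of them was called (higher), and they had a summed level of 6032 to 6318 CPM in lncSLCC1 siRNA libraries and 5698 to 6705 CPM in control siRNA libraries. The 8 fibroblast markers summed to 3.19 to 3.34 CPM in lncSLCC1 siRNA libraries and 2.26 to 2.76 CPM in control siRNA libraries, the 8 leukocyte markers to 1.51 to 2.24 CPM in lncSLCC1 siRNA libraries and 2.08 to 2.26 CPM in control siRNA libraries, and the 6 endothelial markers to 5.57 to 7.05 CPM in lncSLCC1 siRNA libraries and 6.85 to 9.21 CPM in control siRNA libraries, with DCN, LUM, PDGFRA, PECAM1 and KDR at 0 in all 6 libraries. CLDN5 made up most of the endothelial sum, at 4.57 ± 0.558 CPM in lncSLCC1 siRNA libraries and 5.96 ± 0.841 CPM in control siRNA libraries (SD, n = 3 each). It was not called (edgeR adjusted p = 0.113). PDGFRB, a fibroblast marker, was called higher on 6 to 24 reads per library. It stood at 1.35 ± 0.404 CPM in lncSLCC1 siRNA libraries and 0.521 ± 0.166 CPM in control siRNA libraries (SD, n = 3 each; edgeR adjusted p = 0.0448). COL1A1, the other tested fibroblast marker, had a log2 fold change of -0.18 (edgeR adjusted p = 0.643). CLDN5 and COL1A1 were named after their values were seen. The part of PDGFRB in the results below was not tested.

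DLD-1 cells carried 7 of the 8 factors at clear levels, and CDX1 was almost absent. Scaled by the length of the longest annotated transcript, SOX9 was the most abundant at 87.2 ± 4.24 CPM per kb in lncSLCC1 siRNA libraries and 79.6 ± 4.55 CPM per kb in control siRNA libraries (SD, n = 3 each). KLF5 followed at 62.0 ± 2.43 CPM per kb in lncSLCC1 siRNA libraries and 67.2 ± 9.65 CPM per kb in control siRNA libraries. CDX2 came next at 41.96 ± 1.35 CPM per kb in lncSLCC1 siRNA libraries and 48.6 ± 4.57 CPM per kb in control siRNA libraries, and then ELF3 at 24.97 ± 0.410 CPM per kb in lncSLCC1 siRNA libraries and 20.3 ± 1.19 CPM per kb in control siRNA libraries. Lower in the order were 3 endodermal factors. GATA6 stood at 13.8 ± 0.579 CPM per kb in lncSLCC1 siRNA libraries and 14.98 ± 1.53 CPM per kb in control siRNA libraries, and HNF4A at 10.6 ± 0.376 CPM per kb in lncSLCC1 siRNA libraries and 9.04 ± 0.464 CPM per kb in control siRNA libraries. FOXA2 stood at 3.45 ± 0.103 CPM per kb in lncSLCC1 siRNA libraries and 4.30 ± 0.0775 CPM per kb in control siRNA libraries, and CDX1 below 0.2 CPM per kb in all 6. Across the 6 libraries the ranges of neighbours in this order did not overlap on the length-scaled level. The places of HNF4A, ELF3 and GATA6 depend on the transcript assumed: with the median length of the basic GENCODE 29 transcripts, an alternative chosen after seeing the data, HNF4A moved to the fourth place at 39.5 CPM per kb, against 9.83 CPM per kb with its longest transcript, above ELF3 at 35.6 and GATA6 at 18.7 CPM per kb.

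**Figure D1:**
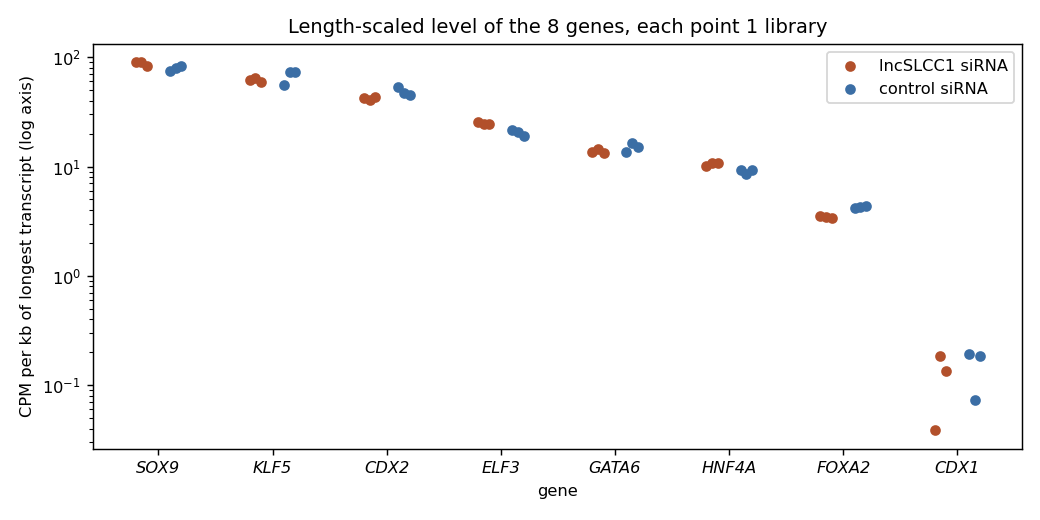
CPM per kb of the longest annotated transcript (log axis) for the 8 genes in order of their mean, with 1 point per library, lncSLCC1 siRNA left and control siRNA right. SOX9 tops the order at 74.8 to 89.7 CPM per kb, and CDX1 lies below 0.2 CPM per kb in every library.

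None of the 7 tested factors passed the test, with 0 higher and 0 lower, where the same rule called 13.8% of all tested genes, 6.46% as higher and 7.39% as lower. DESeq2 and limma-voom also called 0 of them. Their changes were small, with log2 fold changes from -0.39 for FOXA2 to 0.23 for ELF3 and a median of -0.18, beside a median of 0.01 over all tested genes. In 4 of the 7, CDX2, FOXA2, HNF4A and ELF3, the CPM values of the groups did not overlap, CDX2 and FOXA2 below and HNF4A and ELF3 above the controls. Over all tested genes the groups did not overlap in 39.9%, with 14.5% below and 25.4% above. At an unadjusted p under 0.05 there were 3, FOXA2, CDX2 and ELF3, beside 31.6% of all tested genes. With library totals in place of TMM scaling 1 factor passed (ELF3, where 14.8% of tested genes did), with no low-count filter 1 (CDX2, 10.9%), and with GC content and length offsets 2 (CDX2 and ELF3, 30.2%). The eighth factor, CDX1, had too few reads to be tested.

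**Figure D2:**
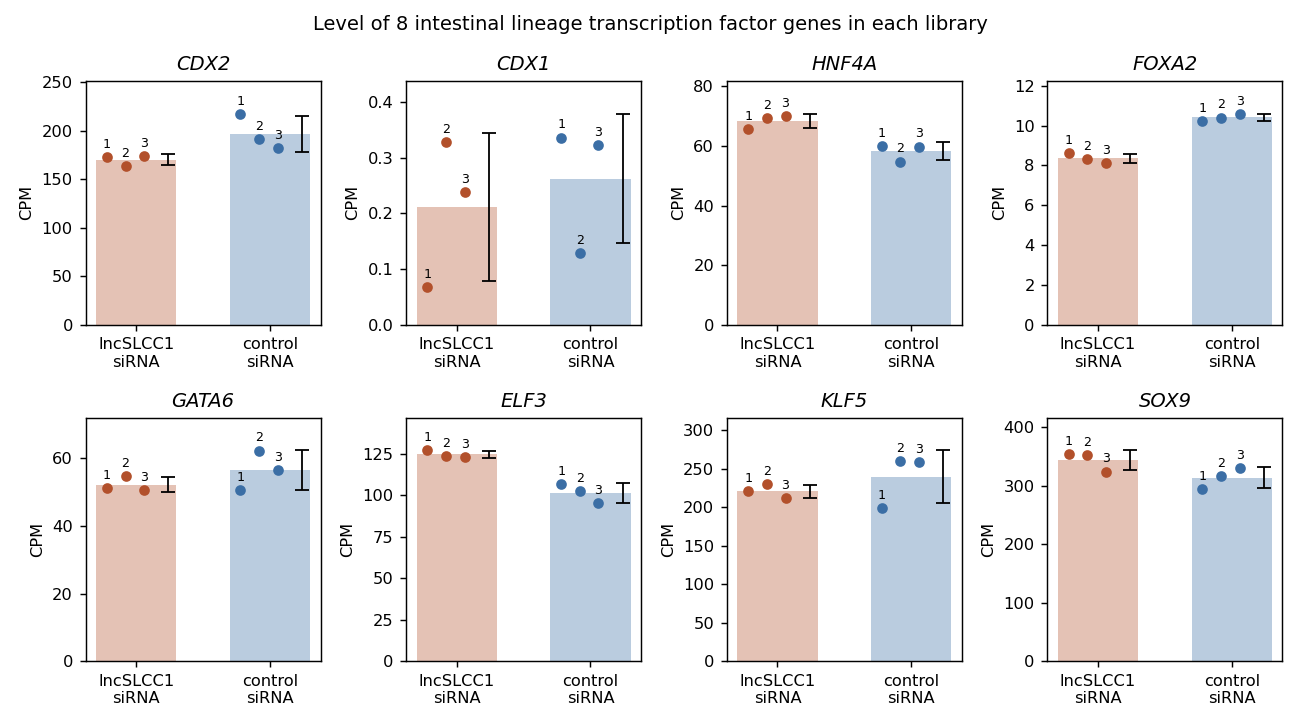
CPM by library totals of each gene, with points for single libraries numbered by replicate, bars for the mean and whiskers for the SD (n = 3), lncSLCC1 siRNA left and control siRNA right, each panel on its own axis from 0. The groups lie apart for CDX2, FOXA2, HNF4A and ELF3 and overlap for the other 4 genes.

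Of the homeobox pair, CDX2 was below the lowest control siRNA library in all 3 lncSLCC1 siRNA libraries, but missed the threshold. It stood at 172 CPM, 164 CPM and 174 CPM in replicates 1, 2 and 3 with lncSLCC1 siRNA, against 218 CPM, 191 CPM and 182 CPM in replicates 1, 2 and 3 with control siRNA. Control siRNA replicate 1 was the highest of the 6, and the lncSLCC1 siRNA libraries lay close together. The means were 170.1 ± 5.48 CPM in lncSLCC1 siRNA libraries and 196.8 ± 18.5 CPM in control siRNA libraries (SD, n = 3 each), or 86.4% of the control level. In the fit, CDX2 had a log2 fold change of -0.28 (95% confidence interval -0.50 to -0.07, SE 0.0953; edgeR adjusted p = 0.075). It passed without control siRNA replicate 1 (log2 fold change -0.18, over 1.5 times smaller, adjusted p = 0.0185), without control siRNA replicate 3 (-0.35, adjusted p = 0.0208), with GC content and length offsets (-0.27, adjusted p = 0.00355) and with no low-count filter (-0.28, adjusted p = 0.0251).

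CDX1 had 1, 5 and 3 reads in lncSLCC1 siRNA replicates 1, 2 and 3 and 5, 2 and 5 reads in control siRNA replicates 1, 2 and 3. These counts overlap and are too few to give a fold. On the log2 scale the ratio of CDX1 to CDX2 reads averaged -9.93 ± 1.23 in lncSLCC1 siRNA libraries and -9.67 ± 0.758 in control siRNA libraries (SD, n = 3 each), a difference of -0.26 that was smaller than either spread (exact two-sided permutation p = 0.7, where 0.1 is the smallest value that 3 against 3 libraries allow). With 1 library left out it ran from -0.74 to 0.43 and turned positive without lncSLCC1 siRNA replicate 1 or control siRNA replicate 3, so the counts give it no direction. The remaining caudal gene, CDX4, had 0 reads in all 6 libraries.

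HNF4A was above the highest control siRNA library in all 3 lncSLCC1 siRNA libraries. It stood at 65.6, 69.5 and 70.1 CPM in replicates 1, 2 and 3 with lncSLCC1 siRNA, against 60.1, 54.8 and 59.8 CPM in replicates 1, 2 and 3 with control siRNA. With TMM scaling, which the test applies on top of library totals, the gap narrowed: lncSLCC1 siRNA replicate 1 lay 0.03 above the 6-library mean on the log2 scale and control siRNA replicate 1 lay 0.01 above it. The log2 fold change of HNF4A was 0.16 (95% confidence interval -0.03 to 0.36, SE 0.0880; edgeR adjusted p = 0.236), and the call was reached without control siRNA replicate 1 (0.21, adjusted p = 0.0267). Without control siRNA replicate 2 the log2 fold change was over 1.5 times smaller, at 0.11 (adjusted p = 0.520 by edgeR).

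FOXA2 had the largest fold change of the tested factors and came closest to the threshold. It stood at 8.61, 8.32 and 8.11 CPM in replicates 1, 2 and 3 with lncSLCC1 siRNA, against 10.2, 10.4 and 10.6 CPM in replicates 1, 2 and 3 with control siRNA. The groups lay apart, and the spread within each was small. The means were 8.35 ± 0.249 CPM in lncSLCC1 siRNA libraries and 10.4 ± 0.188 CPM in control siRNA libraries (SD, n = 3 each), or 80.2% of the control level. These rest on 102 to 127 reads per lncSLCC1 siRNA library and 152 to 164 reads per control siRNA library, the fewest of the tested factors. At such counts the sampling of reads alone gives a wider spread on average, so the small SDs are no measure of precision. FOXA2 had a fitted log2 fold change of -0.39 (95% confidence interval -0.65 to -0.13, SE 0.116; edgeR adjusted p = 0.0534), and without control siRNA replicate 1 it was -0.38 (adjusted p = 0.03). Its close relative FOXA1, also a pioneer factor and named after its values were seen, stood at 173.7 ± 1.99 CPM in lncSLCC1 siRNA libraries and 173.2 ± 17.6 CPM in control siRNA libraries (SD, n = 3 each), a log2 fold change of -0.06 (SE 0.0799, edgeR adjusted p = 0.626).

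GATA6 stood at 51.2, 54.7 and 50.7 CPM in replicates 1, 2 and 3 with lncSLCC1 siRNA, against 50.7, 62.2 and 56.5 CPM in replicates 1, 2 and 3 with control siRNA. By library totals the groups overlapped through control siRNA replicate 1, the lowest of the controls. With TMM scaling they lay just apart. On the log2 scale lncSLCC1 siRNA replicate 2 stood at -0.026 from the 6-library mean and control siRNA replicate 1 at -0.016. For GATA6 the fit gave a log2 fold change of -0.18 (95% confidence interval -0.39 to 0.03, SE 0.0933, edgeR adjusted p = 0.212). Without control siRNA replicate 1 the log2 fold change was -0.23 (adjusted p = 0.0171). It was over 1.5 times smaller without control siRNA replicate 2 (-0.12, adjusted p = 0.492 by edgeR) and with library totals (-0.11, adjusted p = 0.443). GATA4 and GATA5, which share endodermal roles with GATA6, had 0 reads in all 6 libraries.

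ELF3 was the tested factor with the largest positive change. It stood at 127 CPM, 123.6 CPM and 123 CPM in replicates 1, 2 and 3 with lncSLCC1 siRNA, against 107 CPM, 102 CPM and 95.2 CPM in replicates 1, 2 and 3 with control siRNA. The lncSLCC1 siRNA libraries were nearly equal and all above the controls. The means were 124.7 ± 2.05 CPM in lncSLCC1 siRNA libraries and 101 ± 5.92 CPM in control siRNA libraries (SD, n = 3 each), or 122.9% of the control level. ELF3 had a fitted log2 fold change of 0.23 (95% confidence interval 0.04 to 0.42, SE 0.0847; edgeR adjusted p = 0.101). It passed with library totals (0.30, adjusted p = 0.0281), with GC content and length offsets (0.22, adjusted p = 0.00842) and without control siRNA replicate 1 (0.29, adjusted p = 0.000934). Exons of ELF3, GATA6 and FOXA2 overlap those of other genes in GENCODE 29, so some of their reads may have been set aside as ambiguous or, without a stated strand setting, credited to a partner.

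The ratio of CDX2 to ELF3 reads needs no scaling of libraries. It was 1.36, 1.32 and 1.41 in replicates 1, 2 and 3 with lncSLCC1 siRNA, against 2.03, 1.87 and 1.91 in replicates 1, 2 and 3 with control siRNA. The groups had to lie apart here, because CDX2 was below and ELF3 above every control siRNA library in CPM. This pair was picked after its values were seen, so no test is given.

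KLF5 stood at 220.7 CPM, 229.8 CPM and 212 CPM in replicates 1, 2 and 3 with lncSLCC1 siRNA, against 199.8 CPM, 259.8 CPM and 259 CPM in replicates 1, 2 and 3 with control siRNA. The lncSLCC1 siRNA libraries lay between control siRNA replicate 1, the lowest of the 6, and the other controls. For KLF5 the fitted log2 fold change was -0.18 (95% confidence interval -0.40 to 0.03, SE 0.0954; edgeR adjusted p = 0.219). Without control siRNA replicate 1 it was -0.28 (adjusted p = 0.000429), a value over 1.5 times as large, and with library totals -0.12 (adjusted p = 0.475 by edgeR), over 1.5 times smaller.

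SOX9 stood at 353 CPM, 352 CPM and 324 CPM in replicates 1, 2 and 3 with lncSLCC1 siRNA, against 294 CPM, 316 CPM and 329.8 CPM in replicates 1, 2 and 3 with control siRNA. The groups overlapped. For SOX9 the fit gave a log2 fold change of 0.06 (95% confidence interval -0.10 to 0.23, SE 0.0733; edgeR adjusted p = 0.591), and over the 14 alternatives its adjusted p ran from 0.233 to 0.843. The fold change moved by over 1.5 times, to 0.13 with library totals, 0.10 without lncSLCC1 siRNA replicate 3, and 0.04 without lncSLCC1 siRNA replicate 1 or control siRNA replicate 1.

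**Figure D3:**
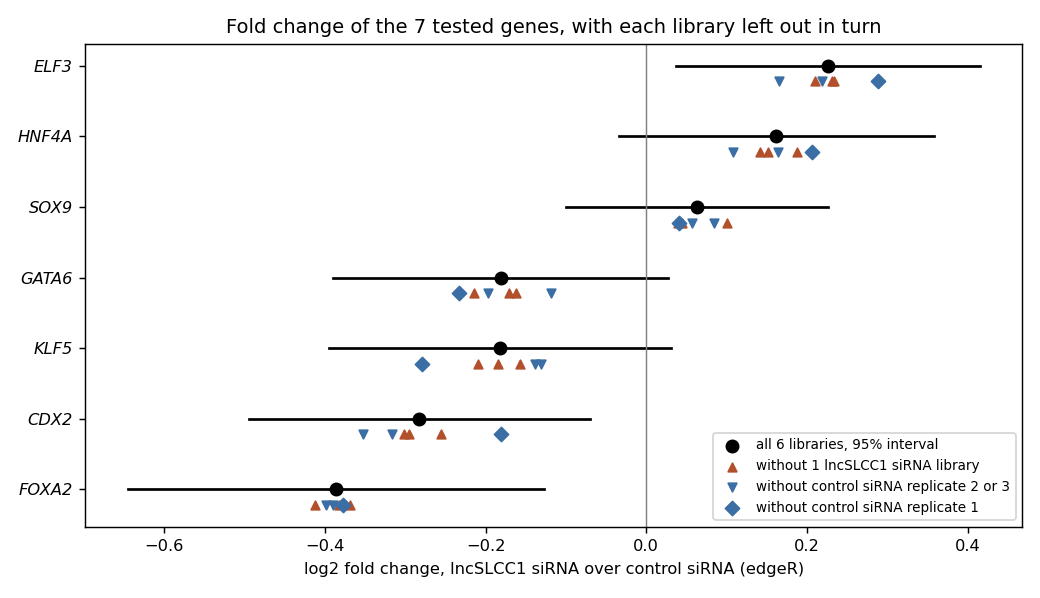
Log2 fold change of lncSLCC1 siRNA over control siRNA by edgeR for the 7 tested genes, with the 95% confidence interval over all 6 libraries (black) and the value with each library left out (coloured marks). Every left-out value keeps its sign, from -0.41 for FOXA2 to 0.29 for ELF3, and the diamonds show the move without control siRNA replicate 1.

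More factors passed without control siRNA replicate 1 than under any other alternative. Without it, 6 of the 7 passed, 2 higher (HNF4A and ELF3) and 4 lower (CDX2, KLF5, GATA6 and FOXA2), when 29% of all tested genes were called. In that library CDX2 stood 0.33 above its 6-library mean on the log2 scale, whereas KLF5 stood 0.12 below its own. Across the 6 libraries, log2 CPM of KLF5 and GATA6 had a Pearson r of 0.89, CDX2 and FOXA2 of 0.82, HNF4A and ELF3 of 0.76, and HNF4A and GATA6 of -0.91 (n = 6, which share depth, scaling and the group difference; no test). By the same measure the 2 genes most like each factor, among 10355 genes with a mean of at least 5 CPM, were SNX17 and DANCR for CDX2 (r = 1.00 each), CAP1 and ZHX3 for HNF4A (1.00 and 0.99), SREK1IP1 and IL1RAP for KLF5 (0.99 each), PNPLA6 and BCAS3 for ELF3 (1.00 each), EEF1E1 and VDAC2 for GATA6 (0.99 each), ATAD3B and POLD3 for FOXA2 (1.00 each) and MAN2A2 and ZNF419 for SOX9 (0.98 and 0.97). A search for the highest of 10355 values over 6 libraries is bound to return high r, and no test was made of it. Of these 14 genes, ATAD3B and POLD3 passed the test, with log2 fold changes of -0.54 (SE 0.0778) and -0.86 (SE 0.0901) and adjusted p-values of 0.00297 and 0.000529 by edgeR.

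**Figure D4:**
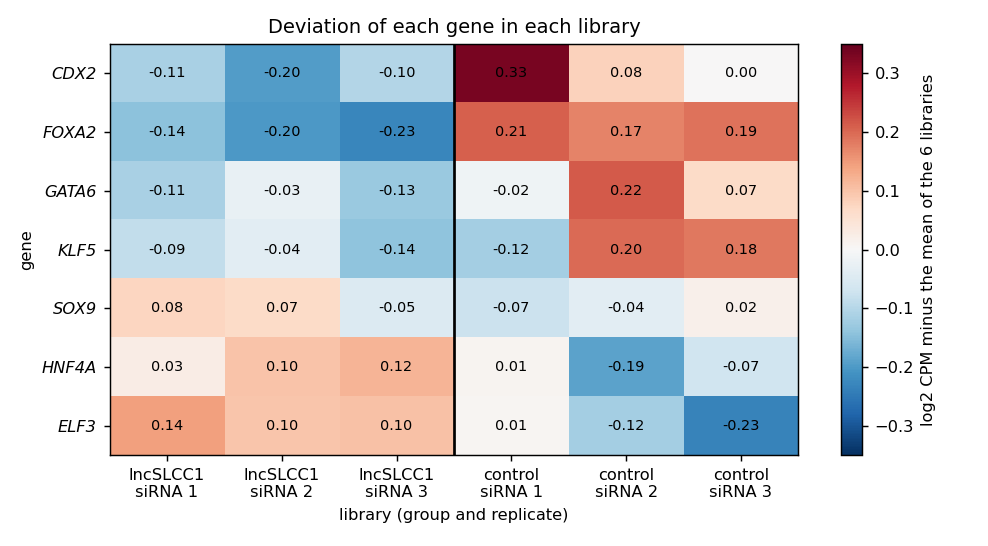
Log2 CPM (TMM-scaled) of the 7 tested genes in each library, minus the mean of the gene over the 6 libraries, lncSLCC1 siRNA left of the black line and control siRNA right of it. CDX2 in control siRNA replicate 1 stands highest at 0.33, and KLF5 in the same library at -0.12 is unlike the other controls.

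Some relatives of these factors passed the test, and the counts of the following lists stand beside the 13.8% called, and the median log2 fold change of 0.01, over all tested genes. The 49 family relatives were KLF, SOX, GATA and FOXA genes, CDX4, HNF4G and the ETS genes ELF1, ELF2, ELF4, ELF5, EHF and SPDEF. Of these relatives 28 were tested, 4 were higher and 6 lower, with a median log2 fold change of 0.00. HNF4G, the partner paralogue of HNF4A in enterocytes, rose to 4.36 ± 0.663 CPM in lncSLCC1 siRNA libraries, against 2.22 ± 0.377 CPM in control siRNA libraries (SD, n = 3 each), a log2 fold change of 0.90 (SE 0.198, edgeR adjusted p = 0.0179). KLF8 rose by 2.00 on 3 to 21 reads per library, and the ETS gene ELF1 and KLF13 rose by 0.36 and 0.35. KLF10 and KLF11, both TGF-beta-inducible repressors, fell by 0.45 and 0.66, ELF4 fell by 0.49 and KLF16 by 0.51, all on the log2 scale. Adjusted p-values of these 7 genes ran from 0.00697 to 0.0362 by edgeR.

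Of 41 other transcription factors of the gut epithelium, 36 were tested, 1 was higher and 5 were lower (median -0.08). The ETS genes ETV4 and ETV5, known outputs of RAS-ERK signalling, fell by 0.55 and 0.35, ID2, an inhibitor of basic helix-loop-helix factors, by 0.36, and LEF1, a partner of beta-catenin, by 0.33 on the log2 scale (adjusted p-values 0.00982 to 0.0267 by edgeR). Of 18 secretory lineage factors 7 were tested. HES1, the Notch target that restrains secretory fate, fell by 0.48 (SE 0.0977, adjusted p = 0.0135 by edgeR), 0 rose, and ATOH1, the factor that starts secretory differentiation, had 0 reads in all 6 libraries.

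Among 32 genes of intestinal identity, 14 were tested, of which 4 were higher and 1 lower, with a median log2 fold change of 0.40. VIL1, which encodes the brush border protein villin, rose to 32.3 ± 3.62 CPM in lncSLCC1 siRNA libraries, against 16.8 ± 2.75 CPM in control siRNA libraries (SD, n = 3 each), a log2 fold change of 0.87 (SE 0.147, edgeR adjusted p = 0.00618). EPHB2, a receptor of crypt cells, rose to 88.9 ± 2.41 CPM in lncSLCC1 siRNA libraries, against 46.9 ± 5.48 CPM in control siRNA libraries (edgeR log2 fold change 0.85, SE 0.109, with an adjusted p of 0.00164). The mucin gene MUC13 rose by 0.52 (adjusted p = 0.0102 by edgeR), while CA2, a carbonic anhydrase gene of colonocytes, fell by 0.84 on the log2 scale (adjusted p = 0.00207). The brush border cadherin gene CDHR5 was called higher by 0.85 on 15 to 36 reads per library (adjusted p = 0.0477 by edgeR), and lost its call in DESeq2 (0.128), with the replicate number as a block (0.0515) and without any 1 library other than control siRNA replicate 3 (0.0548 to 0.157). CDH17, a target of CDX2 that encodes an intestinal cadherin, did not pass, at 143 ± 6.45 CPM in lncSLCC1 siRNA libraries and 114 ± 10.8 CPM in control siRNA libraries (log2 fold change 0.26, adjusted p = 0.0672 by edgeR), nor did KRT20 (0.24, adjusted p = 0.171). TSPAN8 (-0.22, adjusted p = 0.148 by edgeR) and TFF3 (-0.35, adjusted p = 0.203) did not pass either. All of these were named after their values were seen. Of the 14 tested genes, 11 had a positive and 3 a negative log2 fold change. SI, FABP1, FABP2, APOB and APOC3, which mature enterocytes express, had 0 reads in all 6 libraries.

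**Figure D5:**
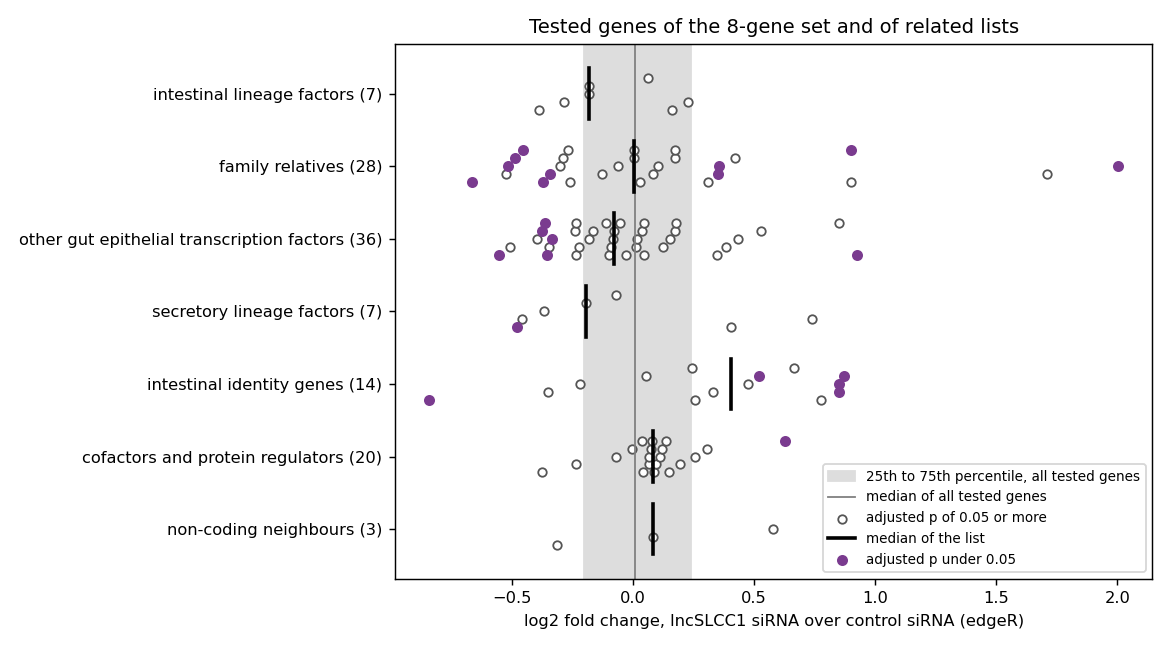
Log2 fold change of lncSLCC1 siRNA over control siRNA by edgeR for the tested genes of each list (number tested in brackets), filled where the adjusted p is under 0.05, with the median of each list as a black line and the 25th to 75th percentile of all tested genes shaded. The 7 lineage factors are all open and between -0.39 and 0.23, whereas the intestinal identity genes have 4 filled points above 0.5 and 1 below -0.8.

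Of 22 cofactors and protein regulators of these factors, 20 were tested, 1 was higher and 0 were lower (median 0.08), with 3 higher and 1 lower at an unadjusted p under 0.05, a cut that 31.6% of all tested genes passed. The gene called higher was NCOA2, a nuclear receptor coactivator gene, at 41.3 ± 2.63 CPM in lncSLCC1 siRNA libraries and 25.5 ± 6.34 CPM in control siRNA libraries (SD, n = 3 each), a log2 fold change of 0.63 (SE 0.152, edgeR adjusted p = 0.0261). Of 4 non-coding neighbours of the factors 3 were tested and 0 passed in edgeR, with 1 at an unadjusted p under 0.05 (again beside 31.6% of all tested genes): log2 fold changes were 0.58 for SOX9-AS1 (adjusted p = 0.0781), 0.08 for GATA6-AS1 (0.837) and -0.31 for LINC00261, the neighbour of FOXA2 (0.481). Across the alternatives 21 called genes of these lists were followed. Of them, 4 kept their call without lncSLCC1 siRNA replicate 2 and 4 without lncSLCC1 siRNA replicate 3. The counts were 8 without lncSLCC1 siRNA replicate 1 and 7 without control siRNA replicate 2. Over all tested genes, 984 higher and 1126 lower with all 6 libraries became 222 and 249 without lncSLCC1 siRNA replicate 2. They were 213 and 244 without lncSLCC1 siRNA replicate 3 and 272 and 318 without lncSLCC1 siRNA replicate 1. Without control siRNA replicate 2 they were 264 and 352. VIL1, EPHB2 and CA2 kept their calls in each of the 14 alternatives.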

How the data were processed

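RNA-seq libraries of DLD-1 cells, 3 with lncSLCC1 siRNA and 3 with control siRNA, were compared. The deposited values are whole-number read counts that the authors made, 1 table of gene symbols per library. TopHat2 version 2.0.11, HTSeq and the builds hg19 and GRCh37 are named in the submitters' processing notes; the strand setting and annotation release were not stated there. Rows that name no gene stayed out of totals and tests. Their shares per library were 5.42% to 7.58% without a feature, 8.83% to 10.1% ambiguous and 12.8% to 13.8% not unique.

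Replicate numbers are those of the sample titles; the deposited files carry other numbers, which are shared between the groups only by the libraries titled 2 and 3. CPM values use library totals. Groups were compared by the quasi-likelihood F-test of edgeR 4.0.16 in R 4.3.3, with TMM scaling, the default expression filter and Benjamini-Hochberg adjustment over 15242 genes. TMM factors ran from 1.02 to 1.03 in lncSLCC1 siRNA libraries and from 0.946 to 0.995 in control siRNA libraries, so fitted log2 fold changes lie below those of the printed CPM means. Each standard error is the fold change over the root of F; the biological coefficient of variation was 10.9%. Chi-square per gene between libraries was 1.87 to 1.99 within lncSLCC1 siRNA and 5.97 to 31.2 within control siRNA, so no libraries agreed within sampling noise. Precision of low levels is limited by counting error.

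The 8 genes, the lists and the alternatives (DESeq2 1.42.0, limma-voom with limma 3.58.1, other scalings and filters, a replicate block, GC content and length offsets, each library left out) were chosen with earlier results of these data known. Named were the 8 genes, the targeted RNA, up to 4 called genes per list and direction with the smallest adjusted p, and the 2 genes most like each factor; others are marked, and some genes are not reported here. Lengths and GC content came from GENCODE 29 by symbol (89.4% of tested genes matched).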

Additional observations from a re-analysis of the deposited data

How the results depend on the processing

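Over 14 alternatives, the direction of all 7 tested factors held in each of the 98 values. The count of factors called moved from 0 to 1 higher with library totals, 1 higher and 1 lower with GC content and length offsets, and 1 lower with no low-count filter. With 1 library left out the counts ran from 0 to 2 higher and from 0 to 4 lower; control siRNA replicate 1 gave the highest of both. Genes called higher numbered 1600 with no low-count filter, and 2159 higher and 2439 lower with GC content and length offsets; with 1 library left out they ran from 213 to 2112 higher and from 244 to 2431 lower. Of genes in the 6 related lists, 10 higher in the main test became 16 with library totals and 24 with GC content and length offsets; with 1 library left out they ran from 2 to 25 higher and from 1 to 20 lower, against 13 lower. Each fit with 1 library left out has fewer degrees of freedom. Over all genes, calls rose without control siRNA replicate 1 (2112 higher, 2431 lower) or control siRNA replicate 3 (1614 and 2088). They fell without any other library. The cause of these moves was not tested. The difference in the CDX1 to CDX2 ratio ran from -0.74 to 0.43 with 1 library left out and turned positive without lncSLCC1 siRNA replicate 1 (0.43) or control siRNA replicate 3 (0.01), as it rests on 1 to 5 reads. LEF1 lost its call with library totals (adjusted p = 0.0503), CDHR5 with DESeq2 (0.128), and KLF8 had no adjusted p from DESeq2.

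With the replicate number as a block, 0 factors were called, and 993 genes were higher and 1059 lower. The title numbers showed no sign of pairing: deviations from the group means correlated at 0.09, 0.00 and -0.02 for title numbers 1, 2 and 3. Such values cannot exclude pairing, because the lncSLCC1 siRNA libraries differed little from each other (chi-square per gene 1.87 to 1.99). The libraries titled 1 carry different numbers on their files, so the block joins them by title alone. KLF13 and CDHR5 lost their calls under the block (adjusted p = 0.0559 and 0.0515), and none of the other 19 called genes followed from the lists did. FOXA2, at 102 to 164 reads, and CDX1, at 1 to 5 reads, are limited by depth.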
